A study of Mus musculus with 4 samples.

Results

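The receptors of bone morphogenetic proteins (BMPs) and of TGF-beta, with Smad proteins that carry their signal and a target gene of the pathway, were followed in mouse leukaemic cells with and without Elovl6, the fatty acid elongase that lengthens palmitate. The set held 10 genes of the 51826 in the deposited table, named by symbol. These were the type II receptors Bmpr2, Acvr2a and Tgfbr2, the type I receptors Bmpr1a, Acvr1 and Tgfbr1, the Smads Smad1, Smad5 and Smad7, and the target Id1. The set was chosen because the gene counts and intron reads of Bmpr2 were much higher in the knockout, so its differences between genotypes are given as a description. The 10 genes were part of the tests across all genes, and nothing is read from their own calls.

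RNA came from lineage-negative, c-kit positive mouse bone marrow cells into which MLL-AF9, a fusion oncoprotein of acute myeloid leukaemia, had been introduced; all 4 samples carried it and were labelled week 2. Wild-type cells (WT) gave 2 samples and Elovl6 knockout cells (KO) gave the other 2. The labels state neither the strain and age of the animals nor the kind of knockout, and do not tell separate animals from repeat cultures for the replicates, so p-values here measure the spread among these libraries alone, and that spread may be technical. Libraries held 8986502 to 11941588 gene counts, and 3 counts corresponded to 0.251 to 0.334 CPM (counts scaled to a common library total). Elovl6 itself had 1290 and 1673 counts in WT against 17 and 34 in KO, which fits the labels.

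BMP and TGF-beta ligands bind pairs of a type II and a type I receptor. The type II kinase phosphorylates the type I kinase, which then phosphorylates receptor Smads: Smad1 and Smad5 below BMP receptors, Smad2 and Smad3 below TGF-beta and activin receptors. These enter the nucleus with Smad4 and switch on genes that include the inhibitor Smad7 and, below BMPs, Id1. TGF-beta restrains the growth of blood stem and progenitor cells.

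The defining genes of the labelled cells were present. Kit was at 111 to 140 CPM in the 4 libraries, and Spi1, Cebpa, Hoxa9 and Meis1 were all detected. In gene counts, none of the 9 progenitor genes passed an adjusted p of 0.05 by edgeR, DESeq2 or limma-voom. However, 7 had negative log2 fold changes and 4 were lower at an unadjusted p under 0.05 by edgeR. That cutoff was passed by 2438 of all 11738 genes tested, counting both directions. In intron reads, Meis1 was lower in KO (log2 fold change -0.37, SE 0.0799, edgeR adjusted p = 0.0433). The summed level of the 9 genes was 6032.6 and 6468.3 CPM in WT against 5662.9 and 4272.4 CPM in KO, mostly Mpo, with KO replicate 2 the lowest. Monocyte and macrophage genes moved with the genotype: 4 of 11 tested, Lyz2, Cybb, Lgals3 and Fcgr3, rose in KO (edgeR), beside 1.82% of all genes called higher. DESeq2 called 7 and limma-voom 3 of the 11 higher, beside 330 and 134 of all 11738 genes. The summed level of the list of 12 was 493 and 595 CPM in WT against 1144 and 1819.8 in KO. The stromal and endothelial list of 10 summed to 133 to 172 CPM, most of it Pecam1, which blood cells also express, at 117 to 153 CPM, and Pdgfrb, at 9.90 to 16.3 CPM. In that list Col1a1 had 1.43 to 3.0 CPM, Emcn had no counts, and Cdh5, Kdr, Cxcl12 and Col1a2 stayed at or below 0.67 CPM. The megakaryocyte list summed to 1.65 to 4.38 CPM, with Ppbp at 0, and the erythroid list to 0.556 to 2.24 CPM, with Hba-a1 at 0. In bulk RNA, a change in the share of a cell type and a change in RNA per cell cannot be told apart, and the part of the monocyte and progenitor genes in the differences below was not tested.

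Among the type II receptors, Bmpr2, which binds BMPs and lies at 59763400 to 59879014 on the plus strand of chromosome 1 (mm10), stood far above its WT level in both KO libraries. Its level was 65.2 and 56.2 CPM in WT replicates 1 and 2 and 185 and 211 CPM in KO replicates 1 and 2. The lower KO library was thus well above the higher WT library. Means were 60.7 ± 6.33 CPM for WT and 198 ± 18.2 CPM for KO (SD, n = 2 each), which is 3.27-fold higher (log2 fold change 1.71, SE 0.0947). The difference ranked 110 from the top of the 11738 genes tested. Reads that cross a splice junction of Bmpr2 numbered 61 and 70 in WT and 173 and 212 in KO, so spliced RNA differed in the same direction. They made up 9.99% of its counts in WT and 10.4% in KO.

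Tgfbr2, the type II receptor of TGF-beta, had 18.3 and 24.4 CPM in WT and 31.6 and 35.8 CPM in KO. The groups did not overlap, and the log2 fold change was 0.65 (SE 0.153). Acvr2a, a type II receptor that binds activins and BMPs, had 12.9 and 10.8 CPM in WT and 12.6 and 16.5 CPM in KO. Here the groups overlapped (log2 fold change 0.30, SE 0.189). Acvr2a shares 446 bases at its end with Orc4, a gene of the origin recognition complex on the opposite strand with 395 to 537 counts. The library kit keeps the strand, but the sources used here do not tell if the counting did.

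Among the type I receptors, Bmpr1a, which binds BMPs and lies at 34410734 to 34503341 on the minus strand of chromosome 14, showed the opposite difference. Its level was 28.1 and 26.3 CPM in WT and 10.5 and 5.04 CPM in KO. Both KO libraries were below both WT libraries, and KO replicate 2 was the lower of the KO pair. Means were 27.2 ± 1.27 CPM for WT and 7.75 ± 3.82 CPM for KO (SD, n = 2 each), which is 3.53-fold lower (log2 fold change -1.82, SE 0.274). The size depended on the KO library, with -2.43 without KO replicate 1 and -1.38 without KO replicate 2. Junction reads were 39 and 47 in WT, against 16 and 7 for KO.

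The other type I receptors differed little or not in a single direction. Tgfbr1, the type I receptor of TGF-beta, had 64.9 and 64.4 CPM in WT and 63.0 and 56.5 CPM in KO (log2 fold change -0.11, SE 0.0852). The groups did not overlap, but KO replicate 1 lay just below the WT libraries. Acvr1, a type I receptor for BMPs and activins, had 2.85 and 2.60 CPM in WT and 2.11 and 4.94 CPM in KO. Its KO libraries lay on either side of WT, and the log2 fold change of 0.38 (SE 0.421) became -0.36 without KO replicate 2.

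**Figure D1:**
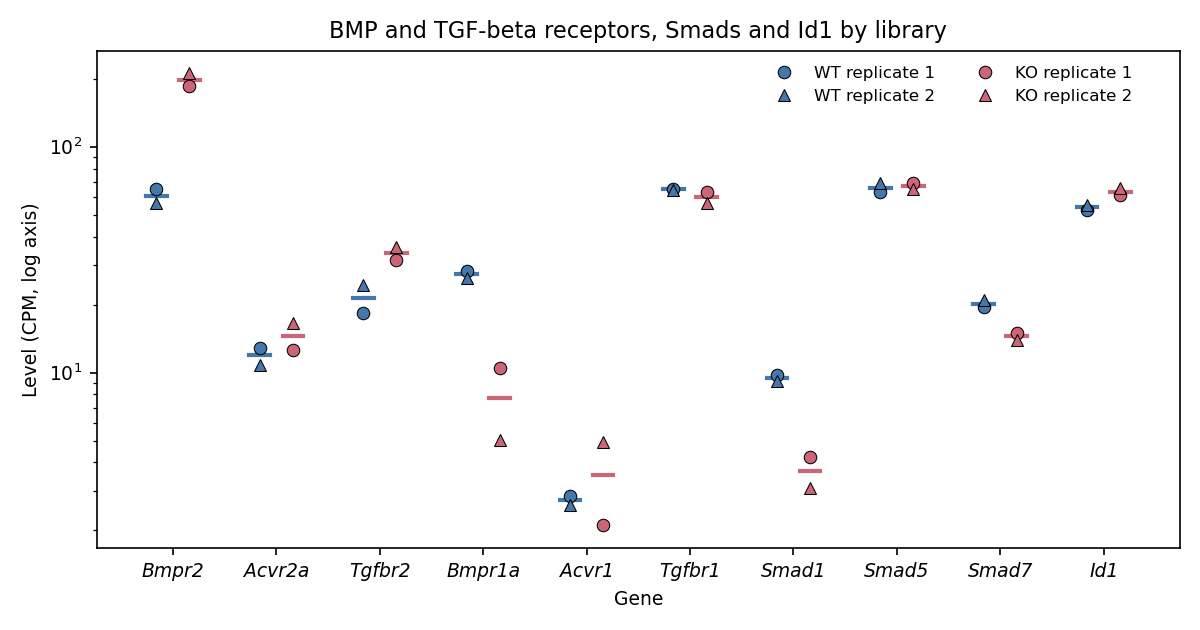
Level of each of the 10 genes in each library, in CPM on a log axis, with circles for replicate 1, triangles for replicate 2 and a bar at the group mean (n = 2). Bmpr2 stands higher and Bmpr1a and Smad1 lower in both KO libraries, while the KO libraries of Acvr1 fall on either side of WT.

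The balance between these 6 receptors therefore differed between genotypes. On a scale per exon length (the authors' RPKM, reads scaled to exon length and library size), the level of Bmpr2 was 1.08 and 1.01 times that of Bmpr1a in the WT libraries and 8.40 and 19.8 times in the KO libraries. Such a ratio is taken within a library and does not depend on library scaling. The 3 type II receptors together had 0.628 and 0.627 times the summed RPKM of the 3 type I receptors in WT, and 1.70 and 2.21 times in KO. Bmpr2, on which the set was chosen, is in the first sum and Bmpr1a in the second. Other expressed receptors, such as Acvr1b, are in neither. Tgfbr1 held the largest share of the summed RPKM of the 6 receptors of WT, 41.1% ± 0.665, against 28.1% ± 3.34 of KO (SD, n = 2 each). Bmpr2 held 18.8% ± 1.55 of the WT sum and 45.3% ± 2.26 of the KO sum (SD, n = 2 each), and Bmpr1a 18.0% ± 0.526 and 3.78% ± 2.00 (SD, n = 2 each). Acvr2a held 8.86% ± 0.844 of the WT sum and 8.02% ± 1.30 of the KO sum (SD, n = 2 each). Tgfbr2 held 10.9% ± 2.36 and 12.6% ± 0.598 (SD, n = 2 each). The sum itself was 11.5 RPKM in each WT library and 15.4 and 16.1 RPKM in KO.

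**Figure D2:**
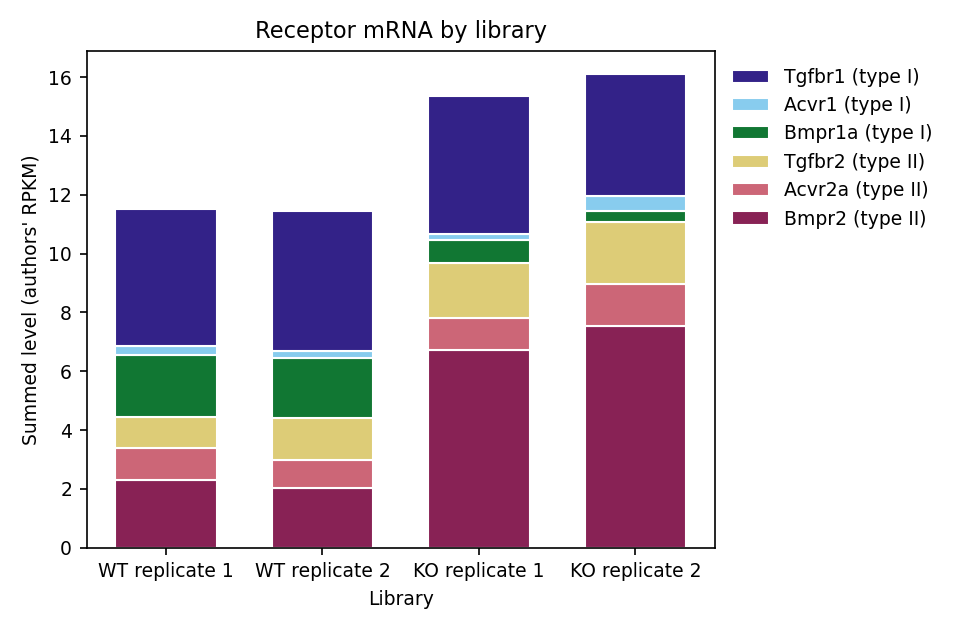
Summed level of the 6 receptors in each library, in the authors' RPKM, stacked from the type II receptors at the bottom to the type I receptors at the top. The Bmpr2 segment is taller and the Bmpr1a segment shorter in both KO libraries, and the whole column reaches 15.4 and 16.1 RPKM there against 11.5 in WT.

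Of the Smads, Smad1, a BMP receptor Smad at 79338395 to 79399518 on the minus strand of chromosome 8, was lower in both KO libraries. Its level was 9.78 and 9.13 CPM in WT and 4.23 and 3.09 CPM in KO. The groups did not overlap, and the level was 2.59-fold lower in KO (log2 fold change -1.37, SE 0.233). Junction reads of Smad1 were 20 and 17 in WT, against 1 and 4 for KO. Smad5, which acts beside Smad1 below the same receptors, had 62.8 and 69.0 CPM in WT and 68.8 and 64.8 CPM in KO, with overlapping groups (log2 fold change 0.02, SE 0.0839). Its junction reads did not follow its counts, with 60 and 101 in WT against 40 and 55 in KO. They made up 11.2% of its counts in WT and 7.61% in KO, a difference that was not tested. Per exon length Smad5 was already the more abundant of the pair in WT, at 5.42 and 6.37 times Smad1 in RPKM, and it was at 13.7 and 17.7 times Smad1 in KO. Both genes were counted from reads with a single placement in the genome, since uniquely placed reads were, after rounding, 100% of their exon reads.

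Smad7, the inhibitor that binds active type I receptors, had 19.6 and 20.9 CPM in WT and 15 and 13.9 CPM in KO. The KO libraries were below WT (log2 fold change -0.49, SE 0.127). Id1, a dominant-negative partner of helix-loop-helix factors and a direct target of BMP Smads, had 52.6 and 55 CPM in WT and 60.9 and 65.3 CPM in KO. Its groups did not overlap, with a log2 fold change of 0.23 (SE 0.0827). Per length Id1 was the most abundant of the 10 genes in both genotypes, at 22.1 ± 1.06 RPKM in WT and 26.2 ± 1.03 in KO (SD, n = 2 each).

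The order of levels per length differed between genotypes. In WT, Id1 was followed by Tgfbr1 at 4.72 RPKM and Smad5 at 4.24, then by Bmpr2 at 2.16, Smad7 at 2.13 and Bmpr1a at 2.07, which overlapped their neighbours in that order. Tgfbr2 at 1.25 and Acvr2a at 1.02 also overlapped, and Smad1 at 0.72 and Acvr1 at 0.269 came last. In KO, Bmpr2 at 7.13 RPKM stood second, above Tgfbr1 at 4.41 and Smad5 at 4.34, which overlapped. Tgfbr2 at 1.98, Smad7 at 1.54 and Acvr2a at 1.27 came next. Bmpr1a at 0.59, Acvr1 at 0.351 and Smad1 at 0.282 were lowest, and each overlapped its neighbour among these.

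All 10 genes passed the filter on low counts. Bmpr2, Bmpr1a and Smad1 passed the threshold of 0.05 on the adjusted p (edgeR's quasi-likelihood test). The same threshold was passed by 2.80% of the 11738 genes tested, 1.82% higher and 0.980% lower in KO. Because the set was chosen on this contrast, nothing is read from that count. It was 1, with Bmpr2 alone, without WT replicate 1 or without WT replicate 2, 2 without KO replicate 2, when Smad1 was not called, and 4 without KO replicate 1, when Tgfbr2 was. It was 5 with no filter on low counts, with Tgfbr2 and Smad7 added. The groups did not overlap for 7 of the 10 genes, beside 53.8% of all genes tested. The median log2 fold change of the 10 genes was 0.12, beside -0.00366 over all genes, and the median size without sign was 0.43 beside 0.139.

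Intron reads, which come largely from RNA not yet spliced, gave a second view of the same libraries. They were tested for 9 of the 10 genes, since annotated exons cover the whole of Id1. For Bmpr2, intron reads, scaled by the library totals that CPM uses, gave 66.4 and 46.8 for WT against 152 and 167 for KO. The groups did not overlap, and the intron log2 fold change was 1.5 (SE 0.148), 0.21 less than that of its gene counts. For Bmpr1a they were 69.4 and 53.9 in WT, against 23.8 and 10.9 for KO, with an intron log2 fold change of -1.83 (SE 0.286), within 0.01 of that of its gene counts. The intron values were -2.49 without KO replicate 1 and -1.37 without KO replicate 2.

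For Smad1, scaled intron reads were 9.78 and 14.7 in WT, against 3.22 and 5.15 for KO (intron log2 fold change -1.54, SE 0.283). For Tgfbr2 they were 31.1 and 38.5 in WT, against 52.3 and 59.0 for KO (0.67, SE 0.121). In both genes the KO libraries lay on one side of WT in introns as in gene counts. Smad7 had an intron log2 fold change of -0.36 (SE 0.135), Acvr2a one of 0.23 (SE 0.102) and Acvr1 one of 0.48 (SE 0.265). Tgfbr1 stayed near 0 in introns (0.02, SE 0.0767). Smad5, near 0 in gene counts, had an intron value of -0.16 (SE 0.0923). Its scaled intron reads were 45.4 and 41.9 in WT against 40.0 and 37.9 in KO, without overlap.

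The sign was the same in gene counts and intron reads for 7 of the 9 genes, the exceptions being Smad5 and Tgfbr1. The largest distance between the readouts was that of Bmpr2, 0.21, beside a median distance of 0.135 over the 10325 genes measured by both. Of the 9 genes, Bmpr2, Tgfbr2, Bmpr1a and Smad1 passed the same threshold on intron reads, as did 4.30% of 12243 genes, 2.52% higher and 1.78% lower in KO. The groups did not overlap in introns for 7 of the 9, beside 51.4% of genes. Nothing is read from these counts either, because the intron reads were part of the choice. The number called was 3 without WT replicate 1, when Tgfbr2 was not called, 3 without WT replicate 2, when Smad1 was not, and 5 without KO replicate 1, when Acvr1 was.

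**Figure D3:**
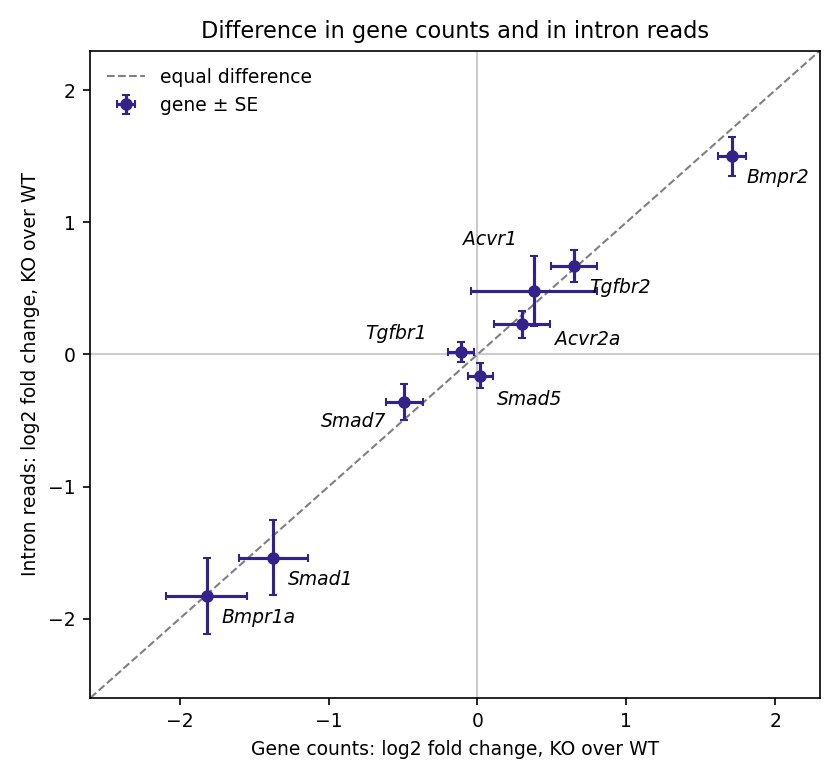
Log2 fold change of KO over WT in gene counts (horizontal) and in uniquely placed intron reads (vertical) for the 9 genes with introns, with the SE of each fit as bars and a dashed line where both are equal. Bmpr2 lies at 1.71 and 1.5, Bmpr1a at -1.82 and -1.83, and the genes follow the dashed line.

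Sequence before a RefSeq transcript start is shown for Bmpr1a and Smad1, which were lower together in both readouts, and for Tgfbr2, which was higher. RefSeq windows of build GRCm38.p6 were held for 8 of the 10 genes. Each window is given 5′ to 3′ up to the first base in it that GENCODE annotates as exon. The stretches of Smad1 and Tgfbr2 lie upstream of the annotated gene, whereas that of Bmpr1a lies inside it, in an intron of transcripts that start further upstream. The window of Bmpr2, 250 bases before the RefSeq start at chr1:59764029-59764278 on the plus strand, lies entirely within an annotated exon and is not printed. Capitals mark the Smad box, CAGAC, and an element that BMP Smads bind, GGCGCC, both searched on either strand. The stretches are chr14:34502688-34502796, chr8:79399519-79399678 and chr9:116175364-116175613, all on the minus strand.
Bmpr1a: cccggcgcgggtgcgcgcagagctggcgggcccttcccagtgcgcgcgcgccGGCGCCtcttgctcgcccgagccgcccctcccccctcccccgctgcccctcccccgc
Smad1: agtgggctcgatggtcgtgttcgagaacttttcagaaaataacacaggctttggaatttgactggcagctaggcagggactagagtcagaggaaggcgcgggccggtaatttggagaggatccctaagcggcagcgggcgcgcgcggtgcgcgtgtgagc
Tgfbr2: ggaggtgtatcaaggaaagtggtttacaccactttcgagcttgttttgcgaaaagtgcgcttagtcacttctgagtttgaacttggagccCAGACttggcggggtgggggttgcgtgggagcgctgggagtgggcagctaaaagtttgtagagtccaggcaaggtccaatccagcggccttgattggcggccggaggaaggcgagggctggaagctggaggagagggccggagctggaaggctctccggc
The 109 bases of Bmpr1a hold 1 GGCGCC, as do 3.41% of the 32851 windows of the table cut to that length, and no match to the Smad box, which 21.4% of them hold. The 160 bases of Smad1 hold neither motif, beside 30.3% of windows of that length with CAGAC and 5.30% with GGCGCC. The 250 bases of Tgfbr2 hold 1 CAGAC, as do 42.2% of windows, and no match to the other element, which 9.59% hold. A match describes letters in these windows and does not show binding. The GC content is 84.4% for Bmpr1a, 58.1% for Smad1 and 58.4% for Tgfbr2. The windows set beside them were matched for length but not for GC content, so the shares do not show how rare a match is in such sequence.

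The rest of the pathway was described from 7 lists of other genes, 105 in the table, of which 51 passed the filter on low counts and 23 had no counts in any library. Of the 51, 6 rose in KO and none fell at an adjusted p of 0.05 (edgeR's quasi-likelihood test), or 11.8% beside the 2.80% over all genes. At an unadjusted p under 0.05 (edgeR), 14 were higher and none lower. Over all genes, 2438 of 11738 passed that cutoff, counting both directions. The counts at that cutoff given per list below stand beside the same share. DESeq2 called 4 higher and limma-voom 2 higher, and neither called any lower. Of all 11738 genes, DESeq2 called 330 higher and limma-voom 134 higher. The median log2 fold change of the 51 was 0.17. The lists were chosen with earlier results of these data known. These values are therefore a description, and no excess over all genes is read from them. No call of the 6 was left without WT replicate 1 or without WT replicate 2, 13 genes passed without KO replicate 1 and 3 without KO replicate 2.

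Of the ligands, 5 of 22 were tested and none passed. Tgfb1, the main TGF-beta of blood cells, was abundant and had 452 and 438 CPM in WT and 456 and 517 CPM in KO (log2 fold change 0.13, SE 0.0727, edgeR adjusted p = 0.363). Gdf11 had a log2 fold change of -0.13 (SE 0.19). Gdf15, a stress-induced member of the family, had 1.02 and 0.838 CPM in WT and 1.67 and 4.12 CPM in KO (log2 fold change 1.65, SE 0.523, adjusted p = 0.143). Bmp4, Bmp5, Bmp10, Gdf2, Gdf3, Inha, Inhbb and Mstn had no counts, and Bmp2, Bmp6 and Bmp7 had at most 0.334 CPM. In ligands, 1 gene was higher at an unadjusted p under 0.05, and neither DESeq2 nor limma-voom called any.

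Beside 1.82% of all genes called higher, 1 of 5 tested genes that hold and activate latent TGF-beta rose. This was Thbs1, thrombospondin 1, a secreted protein that can release active TGF-beta. It had 251 and 244 CPM in WT and 358 and 535 CPM in KO (log2 fold change 0.85, SE 0.166, edgeR adjusted p = 0.0492). Its adjusted p was 0.0503 with RLE scaling, 0.0614 with DESeq2 and 0.0616 with limma-voom. Nrros, which anchors latent TGF-beta on myeloid cells, had 352 and 360 CPM in WT and 331 and 349 CPM in KO, and Furin, the protease that cleaves the TGF-beta precursor, had 194 and 209 CPM in WT and 216 and 302 CPM in KO. Neither passed (log2 fold changes -0.07 and 0.36). Of the secreted antagonists, 3 of 13 were tested and none passed: Twsg1, Fstl1 and Fstl3 had log2 fold changes of 0.22, 0.77 and 0.17. For antagonists 1 gene was higher at an unadjusted p under 0.05, and neither other tool called any.

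Of the other receptors and co-receptors, 8 of 16 were tested and none passed. Fkbp1a, which holds type I receptors inactive, had 165 and 163 CPM in WT and 158 and 183 CPM in KO, and Tgfbrap1, a receptor-associated protein, had a log2 fold change of -0.11 (SE 0.0812). The activin receptor gene Acvr1b had 24.0 and 18.2 CPM in WT and 22.9 and 27.9 CPM in KO. Bmpr1b, the other BMP type I receptor closest to Bmpr1a, had no counts in any library. Among these receptors 1 gene was higher and none lower at an unadjusted p under 0.05, and neither other tool called any.

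Of the other Smads, 4 of 5 were tested and none passed. Smad4, the common partner, had 45.2 and 46.9 CPM in WT and 52.6 and 58.2 CPM in KO (log2 fold change 0.27, SE 0.0914, edgeR adjusted p = 0.169). Smad2 and Smad3, of the TGF-beta branch, differed by 0.02 (SE 0.075) and -0.02 (SE 0.174) on the log2 scale. Smad9, the third BMP receptor Smad, had 0 or 1 count in each library. Among these Smads 1 gene was higher at an unadjusted p under 0.05, and neither other tool called any. Of 18 tested regulators and partners of Smads, 2 rose, beside 1.82% of all genes called higher. Ctdsp2, a phosphatase that acts on Smads, had 87.4 and 82.7 CPM in WT and 109 and 118 CPM in KO (log2 fold change 0.42, SE 0.0703, edgeR adjusted p = 0.039). Lemd3, an inner nuclear membrane protein that binds receptor Smads and represses their output, had 40.1 and 38.5 CPM in WT and 53.0 and 54.6 CPM in KO (0.45, SE 0.0863, adjusted p = 0.0482). Neither was called without KO replicate 2. DESeq2 called Ctdsp2 but not Lemd3 (adjusted p = 0.0148 and 0.0736), and limma-voom called both (0.0461 and 0.0478). Usp9x, a deubiquitinase of Smad4, had 379 and 388 CPM in WT and 393 and 391 CPM in KO.

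Of 8 tested targets of BMP and TGF-beta, 3 rose, beside 1.82% of all genes called higher. Id2, of the same family as Id1, had 8.86 and 11.5 CPM in WT and 18.8 and 24.0 CPM in KO (log2 fold change 1.07, SE 0.188, edgeR adjusted p = 0.0423). Tgfbi, a matrix protein named for its induction by TGF-beta, had 9.27 and 9.55 CPM in WT and 24.0 and 56.4 CPM in KO (2.10, SE 0.381, adjusted p = 0.0441). Its log2 fold change was 1.35 without KO replicate 2. Ltb, the lymphotoxin beta gene, had 3 and 7 counts in WT and 29 and 25 counts in KO (2.63, SE 0.451, adjusted p = 0.0401), and its place among targets of the pathway is the least certain of the list. Id2 was not called without KO replicate 2 (adjusted p = 0.0511), and limma-voom called none of the 3 (adjusted p = 0.0508, 0.0906 and 0.0502 for Id2, Tgfbi and Ltb). Runx2, Junb, Id3, Cdkn1a and Klf10 were tested and not called, with log2 fold changes of -0.01, 0.07, 0.18, 0.22 and 0.34. Id4, Hey1, Atoh8 and Hamp had no counts. The KO library with the higher Tgfbi and Thbs1, replicate 2, was also the one with the higher summed monocyte and macrophage level, 1819.8 against 1144 CPM, and the part of those cells in these differences was not tested.

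**Figure D4:**
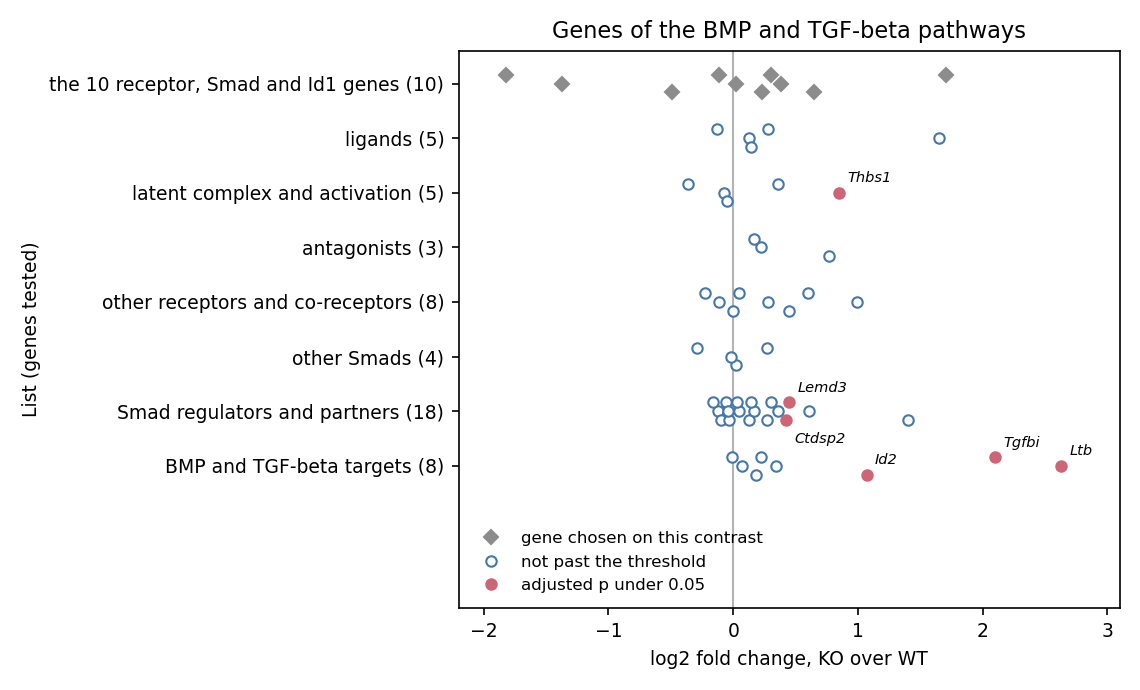
Log2 fold change of KO over WT for the 10 receptor, Smad and Id1 genes (grey diamonds, chosen on this contrast, calls not marked) and for the tested genes of the 7 pathway lists (filled red where edgeR called a difference at an adjusted p of 0.05, open blue otherwise). The 6 genes past the threshold are all to the right of 0, and most of the other pathway genes lie near 0.

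The genes nearest to the profile of Bmpr2 were found by distance. Over the 4 libraries, the smallest Euclidean distances between centred log2 CPM values, among 10974 named protein-coding genes with counts in every library, were those of Anxa4 (0.222), Hebp2 (0.231), Ntng2 (0.263), Frzb (0.266) and Crim1 (0.271). Anxa4, an annexin, had 21.0 and 20.4 CPM in WT and 55.7 and 62.9 CPM in KO. Crim1 had 4.68 and 3.77 CPM in WT and 10.7 and 15.4 CPM in KO. With 4 libraries in 2 groups, such a distance mostly picks genes with a similar fold change, so it is a description.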

How the data were processed

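Whole-number gene counts per library were deposited by the authors, with uniquely placed exon, junction and intron reads, per the file headers. RPKM values, scaled to exon length and library size, were also the authors', per the file headers. The submitters' processing notes name mm10; no aligner, counter or strand setting is named in them. RNA was extracted with Trizol and made into directional libraries, per the labels' protocols. Replicates differed by more than sampling noise (chi-square per degree of freedom 4.21 in WT, 6.19 in KO). Gene counts equalled the unique exon reads plus junction reads with several placements for all 51826 genes.

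Genes were filtered with filterByExpr (minimum count 10, total 15), scaled by TMM and fitted in edgeR 4.0.16 (R 4.3.3), whose quasi-likelihood test gave p-values, with Benjamini-Hochberg adjustment over all genes tested. Intron reads were fitted with the library sizes of the gene counts. The script was tested on simulated data. CPM are TMM-scaled counts. SEs come from the edgeR fit and include the spread between replicates, whereas the floor of 3 counts covers counting error only. DESeq2 1.42.0 and limma-voom (limma 3.58.1), other scalings and filters, a replicate block, unique exon reads and each library left out were alternatives. Of the gene IDs, 99.6% were in GENCODE vM21. Named were all 10 genes, Elovl6, up to 3 genes per pathway list (called genes by smallest p, then the most abundant) and the 5 genes nearest to Bmpr2. Other genes named at 0, as cell markers or as targets not called fall outside that rule. A lymphoid marker list is not reported here. The genes and lists were chosen with earlier results of these data known.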

Additional observations from a re-analysis of the deposited data

How the results depend on the processing

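Bmpr2 kept a positive log2 fold change in all 12 alternatives, from 1.59 to 1.81 in gene counts and from 1.26 to 1.77 in introns, both ranges set by leaving out a library. Bmpr1a and Smad1 kept negative values in every alternative that tested them, as did Smad7. Acvr1 in both readouts, Smad5 in gene counts and Tgfbr1 in introns changed sign in at least 1. The median of the 10 genes lay between 0.01 and 0.13 with a library left out. Genes called in gene counts numbered 329, but 1677 with no filter, 112 at a mean of 10 CPM or more and 14 to 1449 with a library left out. Genes called in intron reads numbered 526, but 1526 with no filter, 283 at that mean and 261 to 1522 with a library left out. The 6 called pathway genes became 12 with no filter, 0 at that mean (10 at an unadjusted p under 0.05), 2 with limma-voom and 0 to 13 with a library left out. The cause of these shifts was not tested; a stricter filter tests fewer genes, and a fit with a library left out has fewer samples, and spread is then taken from the other genotype alone. The replicate numbers are shared by number only (correlation of deviations 0.10): with the replicate number as a block, 875 genes were called in gene counts, and the pathway count was 7. Levels near 3 counts, 0.251 to 0.334 CPM, could not be told from 0.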
